A study of Homo sapiens with 52 samples.

Results

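SUM159PT is an established human cell line of triple-negative, claudin-low breast cancer, and the comparison described here sets 3 SUM159PT samples transfected with siNRP1#3 against 3 transfected with the non-targeting siRNA siNT, whose sequence was not used here. The 6 samples were taken by their labels from 52 samples of 3 cell lines (SUM159PT, MDA-MB-231 and HS578T) that were treated with siRNA or shRNA against NRP1. Both groups received 20 nM of siRNA by reverse transfection with a lipid reagent, and RNA was harvested 72 hrs later. By their labels the groups differ only in the siRNA, and no label gives a day or passage. Transfection alone, without siRNA, was not among the groups. Samples of siNRP1#5, a second siRNA against NRP1 in SUM159PT (n = 2), and of siNRP1#3 and siNT in MDA-MB-231 and HS578T (n = 3 each) are given beside the main comparison.

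Neuropilin-1 (NRP1) is a cell-surface co-receptor. Its extracellular part binds class 3 semaphorins and VEGF family growth factors and assists plexins, VEGF receptors and other receptor tyrosine kinases. Transcripts that end early encode soluble forms that keep the ligand-binding part and lack the membrane anchor. A siRNA guide strand directs cleavage of mRNAs that match it along its whole length, and bases 2 to 8 from its 5′ end, the seed, can also pair with shorter matches in the 3′ UTRs of other mRNAs, as in a microRNA.

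The target of siNRP1#3 is a 19-base stretch of NRP1 coding sequence on the minus strand of GRCh38, at chr10:33185638-33185656. It lies in exon 15 of the 17 exons of NRP1-206 (exon at chr10:33185628-33185724) and encodes residues 801 to 807 of 923, near the membrane anchor, so that transcripts ending before this exon do not contain it. The NRP1 gene spans chr10:33177492-33336262. The site is shown in capitals within 30 bases of spliced mRNA on either side, of which the last 20 downstream bases belong to the next exon. The guide strand follows with its seed in capitals.
NRP1 mRNA at the target site: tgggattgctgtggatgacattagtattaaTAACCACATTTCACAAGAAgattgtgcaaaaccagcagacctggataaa
siNRP1#3 guide strand: uUCUUGUGaaaugugguua
The whole site was present in the 4 transmembrane transcripts (NRP1-201, NRP1-206, NRP1-207 and NRP1-208) and in none of the 5 soluble ones (NRP1-202 to NRP1-205 and NRP1-212). Of 5 short transcripts that belong to neither class, NRP1-209 opens within the site and holds 18 of its 19 bases.

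The samples held between 39670676 and 47781184 expected counts. Of the genes that mark claudin-low cells, VIM and CD44 were abundant (at least 1376 and 406 TPM). SNAI1 was at 18.9 to 32.1 TPM, ITGA6 at 4.22 to 39.7 TPM and ZEB1 at 1.29 to 7.29 TPM. CLDN3, CLDN7, CDH1 and EPCAM stayed at or below 0.94 TPM and CLDN4 at or below 1.56 TPM. Of the receptors low in triple-negative cells, ESR1 and PGR were at or below 0.02 TPM and ERBB2 at 26.2 to 46.0 TPM. Of leukocyte markers, CD68 was at 7.02 to 29.9 TPM, PTPRC at 0.47 to 4.28 TPM and CD3E at 0 TPM. The endothelial markers PECAM1 and CDH5 were at 3.94 to 15.9 and 0.06 to 0.11 TPM. Among controls, replicate 2 stood apart on the first principal component (-96.5, against -38.2 and -23.2 for the other two). For 50 genes that mark MDA-MB-231, the median share of the level in that line was 0.104 to 0.196% in 5 of the 6 samples and 0.748% in siNRP1#3 replicate 3. These genes were chosen for at most 0.5 CPM in each SUM159PT siNT and shNT sample and a mean of at least 20 CPM in MDA-MB-231 controls. The choice thus capped their level in siNT and not in siNRP1#3 samples. Deviations of same-numbered samples of the 2 groups correlated at 0.359 and 0.37 for replicates 2 and 3, which is taken up beside the counts. For siNRP1#3 replicate 1 the correlation was 0.172 with siNT replicate 1 and about as high, 0.16, with siNT replicate 3.

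NRP1 was lower in each siNRP1#3 sample than in each siNT sample. Gene expression stood at 253, 150.5 and 237 CPM in siNT replicates 1 to 3 and at 57.8, 31.3 and 60.8 CPM with siNRP1#3, where CPM are counts scaled to the size of each library by TMM. The log2 fold change was -2.09 (standard error 0.304, adjusted p = 0.000687, quasi-likelihood F test of edgeR, adjusted by Benjamini-Hochberg over 20067 genes), a 4.27-fold lower level. By transcript, levels were lower in the transmembrane and short classes. Transmembrane transcripts summed to 49.1, 24.9 and 45.8 TPM in siNT and to 3.78, 2.52 and 3.86 TPM with siNRP1#3, 8.48% of the siNT mean. The difference was -3.48 on the log2(TPM + 0.1) scale (exact two-sided permutation test, p = 0.1, the smallest that 3 against 3 samples allow).

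Soluble transcripts did not fall. They summed to 8.43, 1.77 and 10.95 TPM in siNT and to 21.8, 9.33 and 27.2 TPM with siNRP1#3, so that the groups overlapped through siNRP1#3 replicate 2 (log2 difference 1.67, exact permutation test, p = 0.2). Within each replicate number the siNRP1#3 sample was the higher, and without siNT replicate 2 the difference was 0.874. Most of it was NRP1-204, at 5.96, 1.02 and 8.64 TPM in siNT and 19.8, 8.42 and 25.2 TPM with siNRP1#3. NRP1-209, the transcript that opens within the site, was at 8.80, 7.04 and 14.6 TPM in siNT and at 0, 0.40 and 0.42 TPM with siNRP1#3. It is 497 bases long and rested on at most 173 counts per sample. NRP1-210, a short transcript with 0 bases of the site, was at 1.44, 1.66 and 2.71 TPM in siNT and at 0.50, 0.25 and 0.93 TPM with siNRP1#3. Soluble transcripts made up 4.97 to 14.7% of NRP1 transcripts with siNT and 71.55 to 82.55% with siNRP1#3. All transcript values are RSEM estimates, which divide reads that transcripts of the gene share. TPM corrects for transcript length, and NRP1-204 is 2213 bases long against 5640 for NRP1-206. The summed NRP1 level moved less in TPM (68.0, 35.7 and 74.5 with siNT, 26.4, 13.0 and 32.9 with siNRP1#3) than in counts.

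**Figure D1:**
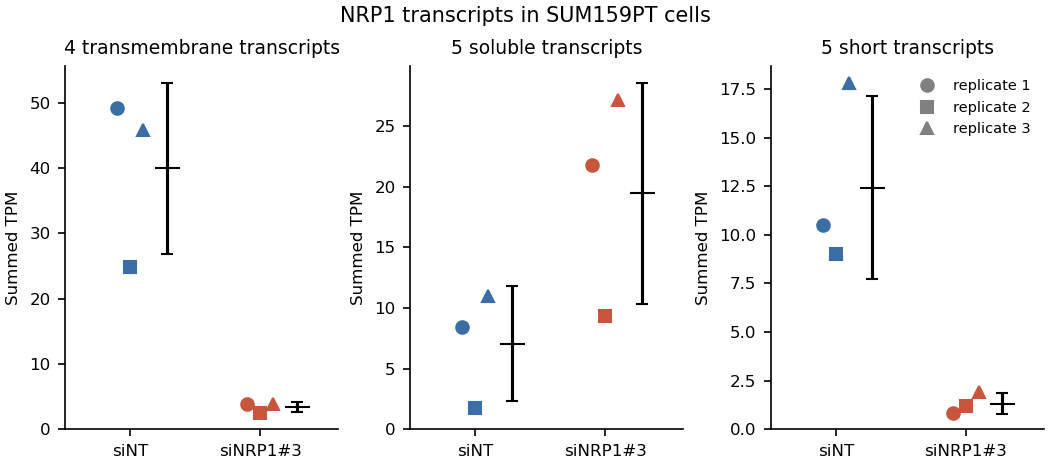
Summed TPM of the 4 transmembrane, 5 soluble and 5 short NRP1 transcripts in each SUM159PT sample, with the shape giving the replicate number and the bar the mean ± SD (n = 3). Transmembrane transcripts are at 3.86 TPM or below in each siNRP1#3 sample, while soluble transcripts reach 27.2 TPM.

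Across the transcriptome, 1737 of 20067 genes passed an adjusted p of 0.05 (8.66%), of which 634 rose (3.16%) and 1103 fell (5.5%). A further threshold of 2-fold left 479 that rose and 796 that fell. Of the 1103 fallen genes 976 were protein-coding and 96 lncRNAs, and of the 634 risen genes 414 and 206. Among all 20067 genes tested, 14391 were protein-coding and 4558 lncRNAs. The median log2 fold change of all genes was -0.01, and the 3 against 3 CPM values of 29% of genes did not overlap. Because deviations of same-numbered samples correlated in replicates 2 and 3, a fit with the replicate number as a block is given as well. That fit called 3032 genes, 1207 higher and 1825 lower, including 1728 of the 1737. With 1 library left out in turn the count ranged from 663 (without siNRP1#3 replicate 1) and 852 (without siNRP1#3 replicate 3) to 1418, and 547 genes passed in the same direction in all 6 of these fits. Such genes are called steady here.

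The largest rises included several genes of the smooth muscle cytoskeleton. AMTN, an enamel-matrix protein gene, was near the detection limit in siNT (0.224, 0.119 and 0.251 CPM) and stood at 22.0, 14.7 and 15.2 CPM with siNRP1#3 (log2 fold change 6.43, standard error 0.62, adjusted p = 0.000104, edgeR). ACTG2, smooth muscle gamma-actin, went from 1.17, 1.15 and 3.38 CPM to 85.8, 73.7 and 72.7 CPM (5.35, adjusted p = 0.00355). TAGLN, the actin-binding protein transgelin, went from 1.88, 5.35 and 9.14 CPM to 149.5, 133 and 207 CPM (4.90, adjusted p = 0.00326). The groups did not overlap in any of these, as the choice of genes required. MYL9, a regulatory myosin light chain, was already expressed in siNT at 96.8, 71.0 and 98.9 CPM and reached 695, 569 and 518 CPM (2.74, adjusted p = 0.000246), a 6.68-fold rise. LMOD1, a leiomodin that nucleates actin in smooth muscle, rose 12.3-fold from a mean of 0.576 to 7.12 CPM. BDNF, a neurotrophin, rose from 2.09, 2.27 and 2.98 to 15.0, 17.4 and 23.4 CPM (2.93, adjusted p = 0.000627).

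The remaining genes among the 14 largest rises were CCDC144NL-AS1 and LINC02454 (lncRNAs), EPPK1 (epiplakin), PLEKHB1, ARL14, MUC13 (a membrane mucin), SYNGR3 (a synaptic vesicle protein) and TMEM265. Their log2 fold changes ran from 2.7 for SYNGR3 to 5.12 for CCDC144NL-AS1. Of the 14, 12 were steady. MUC13 did not pass without siNRP1#3 replicate 1 or 3 or siNT replicate 1 or 2 (adjusted p up to 0.0868), and TMEM265, with a count of 0 in siNT replicate 3, did not pass without siNT replicate 2 (adjusted p = 0.0593) or with DESeq2 (adjusted p = 0.324).

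Among the falls, expressed genes lost most of their transcripts. CA12, a membrane carbonic anhydrase, went from 365, 513 and 346 CPM in siNT to 48.9, 78.2 and 37.5 CPM (log2 fold change -2.89, standard error 0.304, adjusted p = 0.000121). RBM38, an RNA-binding p53 target, went from 146, 211 and 133 CPM to 16.6, 29.7 and 17.2 CPM (-2.95, adjusted p = 0.000246). OSTM1, a subunit of a lysosomal chloride transporter, went from 74.1, 38.1 and 58.9 CPM to 6.07, 7.25 and 10.0 CPM (-2.87, adjusted p = 0.000137). In each of these the highest siNRP1#3 sample was below the lowest siNT sample, as the choice of genes required. PMAIP1, the pro-apoptotic BH3-only protein NOXA, fell from 59.5, 42.1 and 25.8 CPM to 2.96, 7.16 and 1.87 CPM (-3.41, adjusted p = 0.00581). SLCO4A1, an organic anion transporter, fell from 60.2, 220 and 56.1 CPM to 5.32, 15.3 and 8.39 CPM (-3.53, adjusted p = 0.00199). FZD8 (a Wnt receptor, -3.13), FGFR4 (a fibroblast growth factor receptor, -3.02), SH3RF3 (-3.08) and CES1P1 (-3.78) also fell and were steady. CES1P1 is a carboxylesterase pseudogene, and its reads may be shared with its parent gene.

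For 5 of the 14 largest falls the call, though not the direction, depended on single libraries. S100A9, a calgranulin subunit, was at 409, 1752 and 149 CPM in siNT and at 18.2, 79.2 and 11.0 CPM with siNRP1#3, and replicate 2 was the highest of both groups (-4.41, adjusted p = 0.0319, and -5.72 to -2.97 with adjusted p up to 0.125 with 1 library left out). NGFR (the low-affinity neurotrophin receptor, -4.15) and ICOSLG (a co-stimulatory ligand, -3.20), also highest in replicate 2 of both groups, likewise did not pass without siNRP1#3 replicate 1 or 3 or siNT replicate 2. PLIN4 (a lipid-droplet protein, -3.48) did not pass without siNRP1#3 replicate 1 or 3 or siNT replicate 1. AKR1B15 (an aldo-keto reductase with close paralogues, -3.16) did not pass without siNRP1#3 replicate 1 or 3. With 1 library left out the log2 fold changes ran from -5.43 to -3.26 for NGFR, from -3.66 to -1.56 for ICOSLG, from -4.29 to -3.08 for PLIN4 and from -3.71 to -2.81 for AKR1B15, and the largest adjusted p were 0.0954, 0.196, 0.109 and 0.0768.

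**Figure D2:**
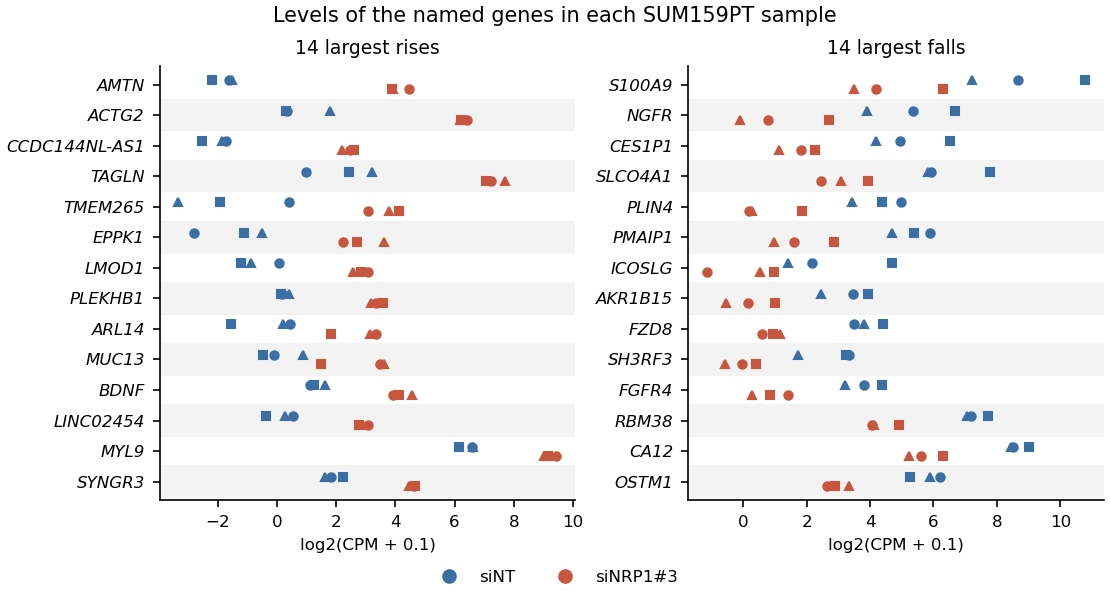
Expression of the 14 genes with the largest rises and the 14 with the largest falls, as log2(CPM + 0.1) in each sample, with circles for replicate 1, squares for replicate 2 and triangles for replicate 3. The 3 siNT and 3 siNRP1#3 values do not overlap in any of the 28 genes, as the choice of genes required, and the spread among siNT samples is widest for TMEM265, S100A9 and ICOSLG.

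ITGA6 and ZEB1, examined for their place in the claudin-low phenotype, differed from each other. ITGA6, the laminin-binding integrin alpha 6, fell from 151, 67.4 and 153 CPM to 26.8, 19.8 and 29.7 CPM (log2 fold change -2.29, standard error 0.29, adjusted p = 0.000246, steady). ZEB1, a transcription factor of the epithelial-mesenchymal transition, was at 26.8, 7.19 and 12.8 CPM in siNT and at 21.1, 18.1 and 11.1 CPM with siNRP1#3 (0.10, adjusted p = 0.914). Values of ZEB1 overlapped, and the sign of its difference turned when single libraries were left out. In the gene lists that follow, shares of members are to be read against the 5.5% of all genes that fell and the 3.16% that rose, and, in the fit with the block, against 9.09 and 6.01%. Of 14 EMT and stem cell genes 3 fell (21.4%) and none rose, the same number as with the block. Besides ITGA6 these were CD44, the hyaluronan receptor (from 1278, 1553 and 1103 to 620, 719 and 584 CPM, -1.03, adjusted p = 0.0049, steady), and VIM, the intermediate filament vimentin (-0.95, adjusted p = 0.012, and 0.063 without siNRP1#3 replicate 3). ZEB2, SNAI1, CDH2 and FN1 had log2 fold changes between -0.10 and 0.11 and adjusted p of at least 0.824.

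Of the neuropilin family, its semaphorin ligands and plexin partners, 5 of 17 genes fell (29.4%) and none rose, with a median log2 fold change of -0.71, and 6 fell with the block (35.3%). PLXNA1, a plexin that signals with neuropilins, fell from 609, 599 and 640 CPM to 103, 187 and 134 CPM (-2.12, adjusted p = 0.000216). PLXNA2 fell from 24.1, 14.7 and 30.1 CPM to 3.71, 4.5 and 7.41 CPM (-2.14, adjusted p = 0.00296). Both were steady, whereas PLXNB2 (-0.82), SEMA3F (-1.21) and SEMA3G (-2.23, under 1 CPM in either group) lost the call in 4 to 6 of the 6 fits with a library left out (adjusted p up to 0.192). NRP2, the paralogue of NRP1, was at 19.1, 12.8 and 16.9 CPM in siNT and at 10.8, 5.34 and 10.8 CPM with siNRP1#3 (-0.86, adjusted p = 0.145).

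Of 18 growth factor ligands and receptors linked to NRP1, 6 fell (33.3%) and 1 rose (5.56%), with a median of -0.71. EGFR went from 116, 84.4 and 98.0 CPM to 26.9, 33.6 and 35.5 CPM (log2 fold change -1.63, adjusted p = 0.00404). VEGFA, the endothelial growth factor that binds NRP1, went from 298, 581 and 313 CPM to 117, 172 and 155 CPM (-1.42, adjusted p = 0.00527). These 2 were steady. PGF (-2.41), PDGFRA (-1.53), PDGFA (-1.18) and IGF1R (-0.86) also fell, and MET, the hepatocyte growth factor receptor, rose (1.29, adjusted p = 0.0238), but each lost the call without at least siNRP1#3 replicate 1, with adjusted p up to 0.137. With the replicate block 10 members fell (55.6%) and 3 rose (16.7%). PDGFRB had a log2 fold change of -0.56 and an adjusted p of 0.501.

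In the list of integrins and laminin-332, 5 of 17 fell (29.4%) and none rose (median -0.47), and 7 fell with the block (41.2%), with ITGA6, ITGA10 (-2.22) and ITGB5 steady. ITGB5, which pairs with alpha v to bind vitronectin, was at 304, 305 and 233 CPM in siNT and at 100.3, 95.5 and 97.6 CPM with siNRP1#3 (-1.52, adjusted p = 0.00108). ITGA2 (-1.55) did not pass without siNRP1#3 replicate 1 or 3 or siNT replicate 1 (adjusted p up to 0.0548), nor did ITGB8 (-1.48) in 5 of the 6 fits. The collagens and matrix list had 2 falls among 20 (10%), close to the share of all genes, namely COL5A2 (-1.10, adjusted p = 0.00897, steady) and COL6A3 (-0.86, not steady). With the block 4 fell (20%) and 3 rose (15%). Of 14 proteases and inhibitors, TIMP3, TIMP2 and MMP9 fell (21.4%), the last under 1 CPM. TIMP3, an inhibitor of metalloproteinases, fell from 1692, 2309 and 1244 to 470.1, 844 and 395 CPM (-1.62, adjusted p = 0.00194, steady). With the block, 6 members fell (42.9%).

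Contractile genes and other targets of serum response factor were the list with the highest median, 0.71, and 6 of its 14 members rose (42.9%) while none fell. ACTG2, TAGLN and MYL9, described above, and CNN1 were steady. CNN1, smooth muscle calponin, was at 0.0224, 0 and 0 CPM in siNT and at 1.25, 0.63 and 0.917 CPM with siNRP1#3, and no fold is given for so few counts. ACTA2 (1.50, adjusted p = 0.0382) and CNN2 (0.64, adjusted p = 0.0447) lost the call whichever library was left out (adjusted p up to 0.162). With the block 9 rose (64.3%). Neither the YAP and TEAD targets nor the genes of cholesterol and fatty acid synthesis had a member past the threshold (0 of 14 and 0 of 17 in edgeR's test), and their medians were 0.06 and -0.01. With the block 2 YAP and TEAD targets fell (14.3%) and 1 gene of cholesterol and fatty acid synthesis (5.88%). The smallest adjusted p in these lists were 0.0651 for YAP1 (-0.67) and 0.257 for SCD (-0.98).

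Genes of signalling feedback and early response fell where they passed. From the MAPK feedback list 5 of 15 fell (33.3%, median -0.56), the same number as with the block, and the transcription factor ETV4 (from 141, 175 and 91.0 to 38.9, 48.6 and 30.3 CPM, -1.79, adjusted p = 0.00253) and the MAPK phosphatases DUSP5 (-1.72) and DUSP4 (-1.03) were steady. IER3 (-1.04) and PHLDA1 (-0.92) lost the call in 4 and 5 of the 6 fits. Of 15 AP-1 and immediate early genes, KLF4, ATF3 and IER2 fell (20%, median -0.80). KLF4, a transcription factor, went from 25.2, 28.6 and 20.8 to 4.41, 6.79 and 5.52 CPM (-2.16, adjusted p = 0.000261) and was the steady one. With the block 8 members fell (53.3%). SMAD7, the inhibitor of TGF-beta receptors, fell with TGFBR2 and TGFBR3 among 15 TGF-beta genes (20%), whose median was 0.23, and of these SMAD7 was steady (-1.37, adjusted p = 0.00378).

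Of 13 CDK inhibitors and p53 targets, PMAIP1, MDM2 and BTG2 fell (23.1%) and ZMAT3 rose (7.69%, log2 fold change 0.75, adjusted p = 0.0483, not steady). With the block 5 fell (38.5%) and 1 rose (7.69%). The median of the list was -0.83. MDM2, the ubiquitin ligase of p53, went from 41.6, 27.8 and 37.1 CPM to 12.2, 11.5 and 10.8 CPM (-1.63, adjusted p = 0.000459, steady). DNA replication genes had 5 of 16 lower (31.2%, median -0.94), namely CDC45 (-1.50), CDT1 (-1.03), MCM7 (-0.99), CCNE1 (-0.97) and the helicase subunit MCM6 (-1.01, adjusted p = 0.00736). MCM6 alone was steady, at an adjusted p of 0.057 when only the 2 groups were fitted, and the number called ranged from 1 to 7 with a library left out. Of 16 mitotic genes only the kinase AURKA passed (6.25%, from 47.2, 32.4 and 88.8 to 17, 4.99 and 17.4 CPM, -2.10, adjusted p = 0.012, steady), whereas 9 fell with the block (56.2%). The list of ATF4 and unfolded protein response genes had the second-lowest median, -1.11, with 3 of 16 called (XBP1 at -1.23, steady, TRIB3 and PSAT1, 18.8%) and 7 with the block (43.8%). Of 14 NRF2 targets 4 fell (28.6%), the weakest being PGD (-0.55, adjusted p = 0.0496, not steady), and NQO1 (from 785, 903 and 938 to 321, 291 and 355 CPM, -1.44, adjusted p = 0.00296), AKR1C1 (-2.23) and AKR1C2 (-2.47) were steady. AKR1C1 and AKR1C2 are near-identical paralogues that may share reads. The block called 7 NRF2 targets (50%).

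Interferon-stimulated genes had 4 falls among 22 members (18.2%) and a median of -0.17, and with the block 4 fell (18.2%) and 1 rose (4.55%). ISG15, a ubiquitin-like modifier, fell from 220, 235 and 131 CPM to 57.2, 52.4 and 54.9 CPM (-1.83, adjusted p = 0.00296, steady), and OASL from 905, 539 and 509.9 CPM to 91.2, 116 and 70.8 CPM (-2.81, adjusted p = 0.0129, and 0.0618 without siNRP1#3 replicate 1 or 3 at most). IFIT1 (-1.99) did not pass without siNRP1#3 replicate 2 (adjusted p = 0.0504), and IFIT2 (-2.0) not in 5 of the 6 fits nor with the block (adjusted p = 0.0511). The lowest median of any list, -1.14, was that of NF-kB targets, chemokines and cytokines, where CXCL2 and ICAM1 fell among 16 (12.5%) and neither was steady (adjusted p up to 0.293), while 4 fell with the block (25%). In the list of 13 RNA interference genes (15.4% fell, 23.1% with the block), DICER1, which makes microRNAs, fell from 33.5, 19.2 and 27.4 CPM to 7.45, 9.31 and 8.21 CPM (-1.68, adjusted p = 0.00266, steady), and TNRC6C fell as well (-1.24, adjusted p = 0.0328, not steady).

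Among the other lists, KRT7, a simple-epithelial keratin, fell from 960, 846 and 822 to 212, 204 and 174 CPM (-2.16, adjusted p = 0.017, and 0.0664 at most without a siNRP1#3 library), and CDH1 fell from at most 1.08 CPM. They were 2 of 17 epithelial genes (11.8%), of which 2 fell (11.8%) and 2 rose (11.8%) with the block. NOTCH1 (-1.43, adjusted p = 0.00479, steady) and DKK3 fell among 17 Notch and Wnt genes (11.8%), and IGFBP4 fell and IGFBP6 rose among 6 IGF binding proteins (16.7% each). ERAP1 fell among 14 MHC class I and antigen processing genes (7.14%, close to the 5.5% of all genes). ANKRD37 rose among 16 genes of hypoxia and glycolysis (6.25%), and GREM1 rose among 12 BMP and ID genes (8.33%) at under 1 CPM. Apart from NOTCH1 none of these was steady, and GREM1 did not pass with DESeq2 (adjusted p = 0.133). With the block 5 Notch and Wnt genes (29.4%), 4 MHC class I genes (28.6%) and 2 IGF binding proteins (33.3%) fell. Rises with the block were 2 BMP and ID genes (16.7%), 1 IGF binding protein (16.7%) and 1 gene of hypoxia and glycolysis (6.25%). No mitochondrially encoded gene (0 of 13) and no replication-dependent histone gene (0 of 11) passed in edgeR's test, and their medians were -0.09 and -0.03. With the block 2 histone genes rose (18.2%) and 1 fell (9.09%).

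**Figure D3:**
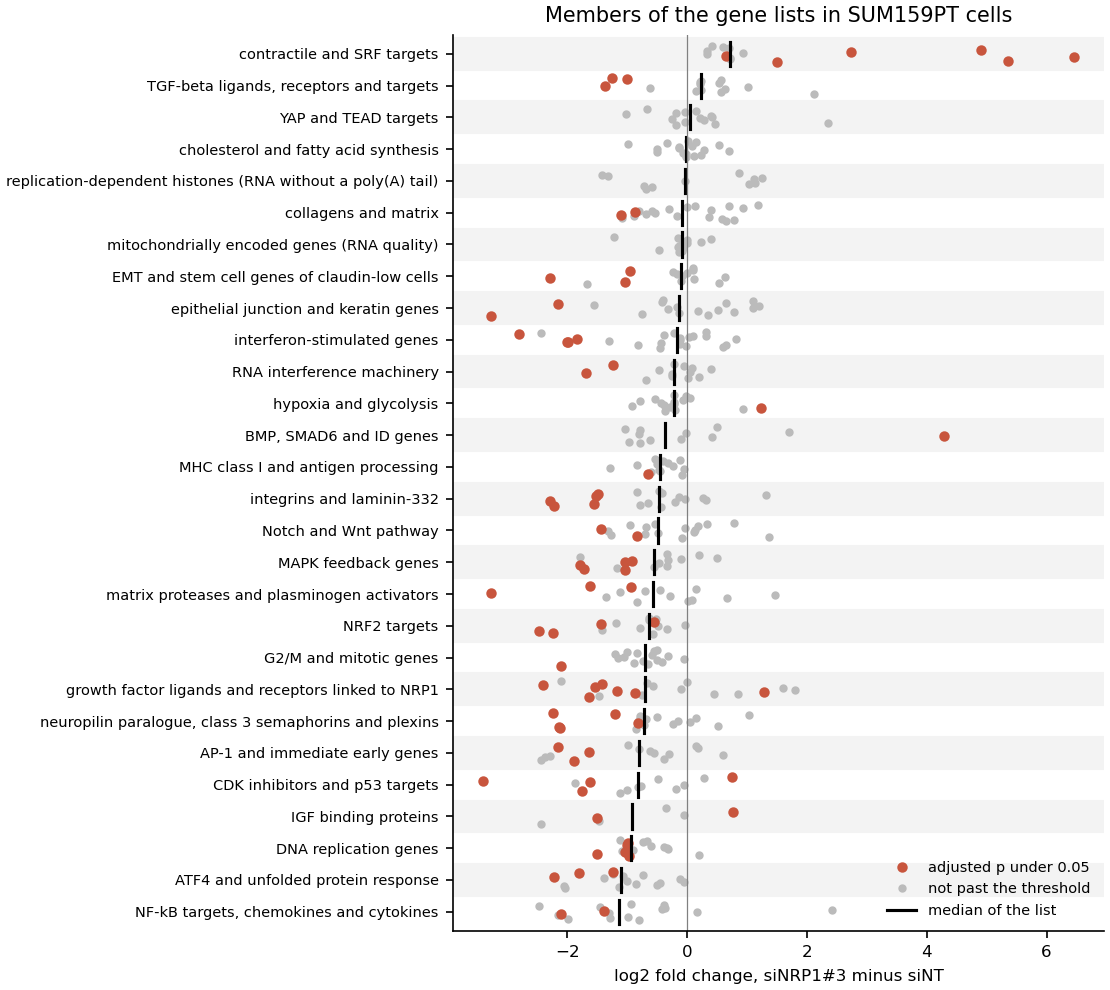
Log2 fold change (siNRP1#3 minus siNT) of the members of 28 gene lists, sorted by the median of each list, with members past an adjusted p of 0.05 in colour and the others in grey. The contractile and SRF targets lie to the right of 0 with 6 members called, and the called members of most other lists lie to the left.

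The fallen genes carried matches to the guide seed in their 3′ UTRs more often than the risen ones. The motif searched was CACAAGA, the complement of guide bases 2 to 8 (and CACAAGAA, the same followed by A), on the mRNA strand of the 3′ UTR of each gene's canonical transcript in GENCODE 44. Of 19555 such UTRs 9.52% held the heptamer and 3.77% the octamer. Among tested genes the heptamer was found in 234 of 975 fallen genes (24%), in 26 of 412 risen genes (6.31%) and in 1176 of 12907 genes not called (9.11%). For the octamer the shares were 11%, 1.94% and 3.5%. The heptamer that matches the seed of the other siRNA strand was in 19.4% of fallen and in 18.1% of all genes. These shares are descriptions, with no test, since genes are not replicates.

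Read by UTR, 16.3% of the 1436 genes with the heptamer fell and 1.81% rose, against 5.76% and 3% of the 12858 genes without it. The median log2 fold change was -0.03 with no heptamer, -0.18 with 1 and -0.35 with 2 or more, and -0.28 with the octamer. Long UTRs hold more motifs (median length 3244 bases with and 1122 without), so that the same was counted within length classes. Among UTRs under 500 bases 18 of 60 genes with the heptamer fell (30%) against 4.92% of 3578 without it. From 500 to 1000 bases the shares were 26.2 and 5.67%, from 1000 to 2000 bases 19.2 and 5.74%, from 2000 to 4000 bases 16.1 and 6.51%, and above that 11.9 and 6.8%. In every class the share that fell was higher with the heptamer. None of the 13 largest falls with a UTR had it, and of the 12 largest rises with a UTR only SYNGR3 did.

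Matches of 7 fallen genes named in the text are shown as examples (GRCh38), with the heptamer in capitals and 10 bases on either side. The 7 are a selection. Other named genes that fell, such as SMAD7, COL5A2 and GNAI2, and the risen SYNGR3 and GREM1 also had matches. For each gene the first match was taken.
ITGA6, chr2:172504680-172504686, plus strand: tgtcccacatCACAAGActatgccatt
ITGA2, chr5:53091955-53091961, plus strand: cttaaacttcCACAAGAgtgaatttga
PLXNA2, chr1:208024225-208024231, minus strand: agctcctctcCACAAGAagccattcat
DICER1, chr14:95090236-95090242, minus strand: ttgtttaaatCACAAGAgtgctttaat
AURKA, chr20:56370041-56370047, minus strand: tagaacgctaCACAAGAaatatttgtt
KRT7, chr12:52248803-52248809, plus strand: cacccacaatCACAAGAagattcccac
CTNNB1, chr3:41239868-41239874, plus strand: gtgaagaatgCACAAGAatggatcaca
PLXNA2, DICER1 and CTNNB1 hold 2 heptamers each, and the matches of PLXNA2, AURKA, KRT7 and CTNNB1 are octamers. Over all gene lists, 16 of the 64 fallen members and 1 of the 11 risen members had the heptamer in the UTR, and NRP1 itself had none there. Whether the seed matches had a part in the fall of any of these genes was not tested.

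The same siRNA in the other lines, which have their own siNT samples, gave more calls in MDA-MB-231 (4823 of 18800 genes, 25.7%) and fewer in HS578T (914 of 19661, 4.65%). Of the 1020 genes that fell in SUM159PT and were tested in MDA-MB-231, 666 fell there as well (65.3% of these and 26.4% of the 2519 that fell in MDA-MB-231, where 14.3% of all genes fell) and 8 rose. For rises the numbers were 279 of 505 (55.2 and 14%, where 11.4% of all genes rose) with 10 opposite. In HS578T 149 of 1033 fallen genes (14.4%, and 36% of the 414 that fell there, against 2.34% of all genes) and 63 of 530 risen genes (11.9 and 15.4%, against 2.31%) were shared, with 11 and 2 opposite. For 10 genes that mark MDA-MB-231, the median share of the level in that line was 1.65, 2.79 and 5.24% in HS578T siNRP1#3 replicates 1 to 3, against 0.592 to 1.36% in HS578T siNT, and their part in the HS578T results was not tested. These genes were chosen for at most 0.5 CPM in each HS578T siNT and shNT sample, which capped their level in siNT and not in siNRP1#3 samples. Without HS578T siNRP1#3 replicate 3 the number called in HS578T was 691.

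In all 3 lines 124 genes fell and 41 rose, of 16331 tested in each, among which 1001 fell and 470 rose in SUM159PT. Ranked by their smallest change over the lines, MYBPH (-3.89, -2.35 and -7.67 in SUM159PT, MDA-MB-231 and HS578T), CTSO and C4B led the falls. In edgeR's test MYBPH was near the threshold in SUM159PT and MDA-MB-231 (adjusted p = 0.0276 and 0.0319). So was C4B in SUM159PT and HS578T (adjusted p = 0.0439 and 0.0488, edgeR). CTNNB1 (beta-catenin), which was chosen after its values were seen and ranks below these, fell from 269, 223 and 352 CPM to 79.1, 65.6 and 65.6 CPM in SUM159PT (log2 fold change -2.01) and by 1.67 and 1.54 on the log2 scale in MDA-MB-231 and HS578T. GNAI2, an inhibitory G protein subunit, had log2 fold changes of -2.12, -1.82 and -1.42 in SUM159PT, MDA-MB-231 and HS578T, and SLC6A6, the taurine transporter, of -2.18, -2.0 and -1.82. Among the rises, KRTAP2-3, a keratin-associated protein gene with close paralogues, had 4.66, 4.31 and 4.70, and TAGLN 4.90, 2.56 and 3.85. The guide heptamer was in the UTRs of 44 of the 117 genes that fell in the 3 lines and have a UTR (37.6%) and in 3 of the 32 that rose. In MDA-MB-231 35% of genes with the heptamer fell against 15.1% without it, and in HS578T 6.07 against 2.35%.

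The effect of siNRP1#3 itself was compared between lines by an interaction test. It differed from MDA-MB-231 for 90 of 23416 genes (0.384%), 53 with the higher value in SUM159PT (0.226%) and 37 with the lower (0.158%). From HS578T it differed for 760 (3.25%), 208 higher (0.888%) and 552 lower (2.36%), and with the replicate block for 427 and 1565. The first count was 48 without siNRP1#3 replicate 1, 31 without siNT replicate 2 and 172 without siNT replicate 3. The second was 376 without siNRP1#3 replicate 1, 487 without siNT replicate 2 and 552 without HS578T siNRP1#3 replicate 3. BDNF rose in SUM159PT and fell in MDA-MB-231 (-0.47), a difference of 3.42 (adjusted p = 5.66e-06). ITGA6 had log2 fold changes of -1.18 in MDA-MB-231 and -0.59 in HS578T, and its difference from HS578T passed (-1.70, adjusted p = 0.00908) while that from MDA-MB-231 did not (adjusted p = 0.282). KRT7 fell in MDA-MB-231 as well (-2.28) and rose in HS578T (2.11), where the difference was -4.27 (adjusted p = 1.93e-05). ISG15 had 0.79 in HS578T and differed by -2.63 (adjusted p = 0.000151). For NRP1 the change was -0.70 in MDA-MB-231 and -1.20 in HS578T, and the differences did not pass (adjusted p = 0.0646 and 0.172) but did with the block (-1.40, adjusted p = 0.00177, and -0.91, adjusted p = 0.0223).

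Lastly, siNRP1#5 targets transmembrane and soluble NRP1 transcripts alike and was compared in the same line with the same siNT samples. Because the controls are shared, values are set side by side and no overlap of the lists is given. It called 3590 genes (17.9%), 1806 higher (9%) and 1784 lower (8.89%), and NRP1 fell by 4.31 on the log2 scale. ITGA6 had -0.66 with siNRP1#5 (adjusted p = 0.152, edgeR). Log2 fold changes, with no call given here, were -1.33 for EGFR, -0.98 for VEGFA, -1.62 for CD44 and -1.43 for DICER1. Gene lists went either way. DNA replication genes had a median of 0.94 (6 of 16 rose, 1 fell), against -0.94 with siNRP1#3. Mitotic and ATF4 lists had 0.51 and 0.47 (0 called of 16 each), against -0.70 and -1.11. Interferon-stimulated genes had -1.70 (14 of 22 fell) and integrins and laminin-332 -1.21 (7 of 17 fell), against -0.17 and -0.47. TAGLN rose by 4.31 and ACTG2 by 3.23 (adjusted p = 0.00503 and 0.0269, edgeR). AMTN had -1.0 and LMOD1 -1.83, neither past the threshold (adjusted p = 0.400 and 0.0554, edgeR), with AMTN at 0.251 CPM or less in siNT. VIM had 0.43. Of genes with the siNRP1#3 heptamer 12.3% fell after siNRP1#5, against 10.2% of those without it. Tested directly, siNRP1#3 and siNRP1#5 differed for 5967 genes (29.7%), 2759 higher (13.7%) and 3208 lower (16%) with siNRP1#3. NRP1 was 2.22 higher with siNRP1#3 on the log2 scale (adjusted p = 0.000415), and ITGA6 was lower by 1.62 (adjusted p = 0.00124). The smallest p belonged to HADHB and DAZAP2, which were lower with siNRP1#5, and to MRPL58, a mitochondrial translation release factor, which was lower with siNRP1#3 (-3.53, adjusted p = 2.55e-06).

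**Figure D4:**
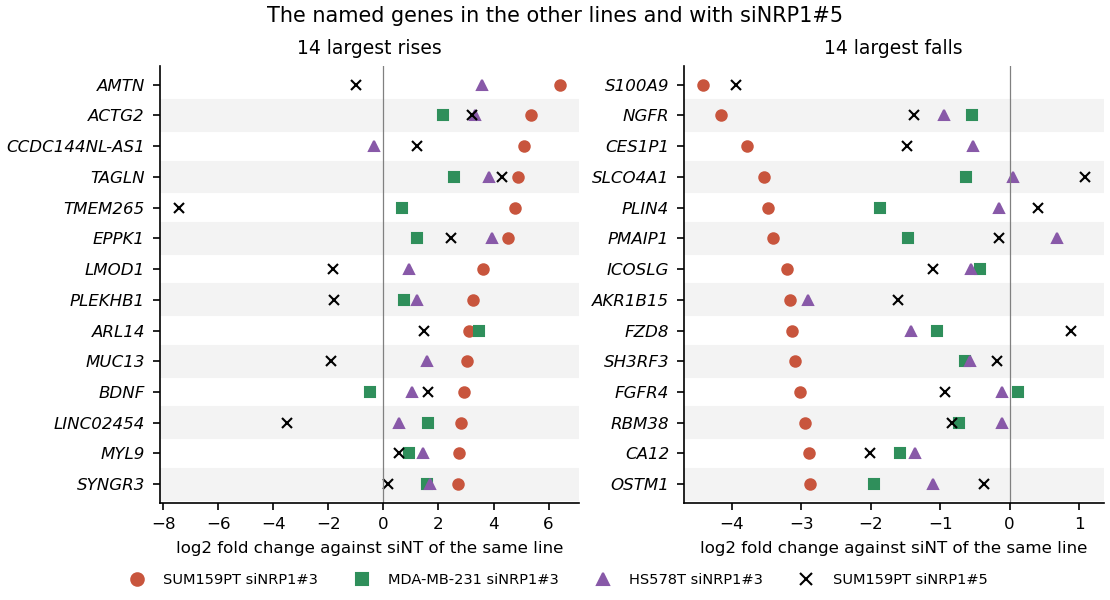
Log2 fold change against siNT of the same line for the 28 named genes, after siNRP1#3 in SUM159PT, MDA-MB-231 and HS578T and after siNRP1#5 in SUM159PT, where a missing symbol means that the gene did not pass the filter on low counts. TAGLN lies to the right of 0 in all 4 comparisons and CA12 to the left, whereas AMTN, LMOD1 and LINC02454 are among those that lie on opposite sides for the 2 siRNAs in SUM159PT. After siNRP1#5 the fall of LINC02454 passed the threshold, and the values of AMTN and LMOD1 did not.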

How the data were processed

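Poly(A) RNA of the 52 samples was sequenced by the authors from stranded libraries. They checked reads with FastQC 0.11.9, trimmed them with Trim Galore 0.6.5, aligned them with STAR 2.7.2b to GRCh38 and quantified genes and transcripts with RSEM 1.3.3. The deposited expected counts per gene are estimates that divide reads shared between genes, and were rounded here to whole numbers. The deposited TPM and the deposited percent of each gene's transcripts were used for NRP1 transcripts and markers. The authors left out 2 outlying samples, and siNRP1#5 in SUM159PT has 2 replicates for this work.

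Expected counts were tested with edgeR 4.0.16 in R 4.3.3 (genes kept at a minimum count of 10 and a total of 15 by filterByExpr, TMM, robust quasi-likelihood F test) in 1 model of the 17 SUM159PT samples in 6 groups, with Benjamini-Hochberg adjustment over 20067 genes and a threshold of 0.05. Differences between lines were tested as interactions in 1 model of the 52 samples in 18 groups, and MDA-MB-231 and HS578T were also fitted alone. NRP1 transcript classes were tested by two-sided exact permutation on log2(TPM + 0.1). The scripts were tested on simulated counts first. The replicates are described as biological replicates. Same-numbered siNT and siNRP1#3 samples had deviations that correlated at 0.172, 0.359 and 0.37 (-0.466 to 0.16 for different numbers), the pairing coming from the replicate numbers in the labels, so counts from a fit with the replicate block are given beside the main ones. No label states that a number marks a shared day or batch. The deviations of each group sum to 0, so these correlations depend on each other. Alternatives were RLE size factors, no filter on low counts, the block, DESeq2 1.42.0, a fit of the 2 groups alone and leaving out each of the 6 libraries.

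Genes named are NRP1, ITGA6, ZEB1, the 14 largest rises and 14 largest falls among called genes whose CPM did not overlap and whose higher group averaged at least 5 CPM, the called members of 28 lists (436 genes), and the smallest p values of each difference test. NRP2, ZEB2, SNAI1, CDH2, FN1, PDGFRB, CTNNB1, GNAI2, SLC6A6 and KRTAP2-3, MYBPH, CTSO and C4B lie outside this rule and were chosen after their values were seen. The comparison, lists and tests were chosen with earlier results of these data known. UTRs and coordinates are from GENCODE 44 on GRCh38. Total counts set the precision, which for genes near 1 CPM rests on few reads.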

Additional observations from a re-analysis of the deposited data

Results flagged for a closer look

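The effect of siNRP1#3 differed between cell lines, by the interaction test of edgeR's quasi-likelihood model, for 90 genes between SUM159PT and MDA-MB-231 and for 760 genes between SUM159PT and HS578T. The values that follow are differences in log2 fold change, SUM159PT minus the other line, of genes named in the report or with the smallest p. Of 112 such genes 10 passed against MDA-MB-231 and 37 against HS578T. Among all genes tested 0.384% and 3.25% passed. Most of the 112 were chosen because they were called in these same SUM159PT samples, which favours a difference from another line. Their counts are therefore no measure of how often lines differ.

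Against MDA-MB-231, the difference was 3.42 for BDNF, 5.98 for FILIP1 and 5.28 for MYO5C, which were higher in SUM159PT. In the SUM159PT fits MYO5C did not pass the filter on low counts without siNRP1#3 replicate 1 or 3. The difference was -2.89 for SLCO4A1, -2.43 for SH3RF3, -2.19 for RBM38 and -2.11 for MAGEH1. It was also -1.73 for DUSP5, -1.71 for IER2 and -1.67 for KLF4.

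Against HS578T, the effect was higher in SUM159PT for CCDC144NL-AS1 (5.45), FILIP1 (4.5), LINC02454 (2.25) and BDNF (1.87). The other genes had the lower value in SUM159PT, and their grouping here is only an order of presentation. Most of them were chosen as fallen in SUM159PT, which favours a lower value there. Differences were -3.83 for ATF3, -2.73 for DUSP5, -2.59 for IER3, -2.02 for KLF4, -1.94 for IER2 and -1.81 for NOTCH1. They were -4.29 (CXCL2), -3.13 (OASL), -2.93 (IFIT2) and -2.63 (ISG15). Further values were -4.1 (PMAIP1), -3.78 (TRIB3), -2.94 (PSAT1), -2.84 (RBM38) and -1.47 (XBP1). Next came -5.18 (MMP9), -4.69 (CDH1), -4.27 (KRT7), -3.18 (PGF), -2.91 (FGFR4), -2.0 (PLXNA2), -1.7 (ITGA6) and -1.17 (IGF1R). The others were SLCO4A1 (-3.58), CES1P1 (-3.25), SH3RF3 (-2.53), OSTM1 (-1.78), CA12 (-1.54), MCM6 (-0.896), XKR8 (-4.04), INO80C (-2.48), CTSC (-1.89) and MRPL58 (-1.54). CDH1 and MMP9 rested on about 1 CPM or less in SUM159PT. FILIP1 did not pass the filter on low counts when HS578T was fitted alone.

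HS578T siNRP1#3 replicate 3 held 10 MDA-MB-231 marker genes at a median of 5.24% of their level in MDA-MB-231, and the part of this in the differences was not tested. The choice of these genes capped their level in the HS578T control samples and not in siNRP1#3 samples. Without that library 31 of these 37 genes still passed, the exceptions being FGFR4, CA12, PLXNA2, IGF1R, OASL and MCM6.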

How the results depend on the processing

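The number of genes changed by siNRP1#3 was 1737, and 1759 with RLE size factors, 2565 without the filter on low counts (1429 of the 1737 among them), 3032 with the replicate block, 2675 with DESeq2 and 1080 when only the 2 groups were fitted. With 1 library left out it ranged from 663 to 1418. Genes whose effect differed from MDA-MB-231 numbered 486 without the filter, 427 with the replicate block and 31 to 172 with 1 library left out. Those that differed from HS578T numbered 1565 with the replicate block and 376 to 860 with 1 library left out, and 552 without HS578T siNRP1#3 replicate 3, an alternative chosen after seeing the data. The sign of ZEB1, which never passed, turned to -0.09 without siNRP1#3 replicate 1, -0.25 without siNT replicate 2 and -0.03 without siNT replicate 3, within a range of -0.25 to 0.75 over the libraries left out. Of 105 called genes named or listed, none turned in direction under any of these alternatives that could test it. RLE size factors ended the call of 1 (ZMAT3), the block of 1 (IFIT2), DESeq2 of 2 (TMEM265 and GREM1), no filter of 5, and the fit of the 2 groups alone of 25 of the 102 it tested. Leaving out siNRP1#3 replicate 1 ended 48 and the other libraries 21 to 44. The transcript tests could not pass with 3 against 3 samples, and genes near 1 CPM are limited by depth.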
